A study of Mus musculus with 4 samples.

Results

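The data described here are RNA read counts of 10 genes of the p53 pathway in primary mouse pancreatic islets at a low and a high glucose level. The genes were chosen by name: Trp53, which encodes p53; its regulators Mdm2 and Mdm4; and the p53 target genes Cdkn1a, Ccng1, Btg2, Plk2, Plk3, Sesn1 and Zmat3. Each name matched 1 row of the 56748 genes in the deposited count table, and all 10 passed the filter on low counts, as did 15665 genes in all. Islets, the hormone-cell clusters of the pancreas, were isolated from male C57BL/6J mice of 6 to 8 weeks. After a period in medium without glucose they were kept for 2 h at either 2.5 mM glucose, here low glucose, or 25 mM glucose, here high glucose. Every culture received cycloheximide (100 μg/mL), which blocks translation elongation, for its last 15 minutes. There were 2 poly(A)-selected libraries per glucose level, called replicate 1 and replicate 2, and 4 in all. The study's methods state that the islets of every mouse were split over the 2 glucose levels and that a biological replicate held islets of several mice. Low glucose is not an untreated baseline, since those islets had also been deprived of glucose first.

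p53 is a transcription factor that is held at a low level by the ubiquitin ligase MDM2 and is bound and inhibited by the related protein MDM4, also called MDMX. DNA damage and other stresses free p53 from this control, mainly by acting on the proteins rather than on the Trp53 mRNA, and p53 then activates genes for cell cycle arrest, repair, apoptosis and metabolism. Mdm2 is itself such a target, which closes a negative feedback loop. Several of these genes have other inputs as well: Btg2, Plk2 and Plk3 are also early-response genes to growth factors and depolarization. The libraries measured mRNA, so p53 protein and its activity were not measured here.

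The start regions of some of the genes are shown first. They run from 250 bases before to 50 bases after an annotated RefSeq start (build GRCm38.p6), and 9 of the 10 genes had such a sequence, in 12 windows. Zmat3 was not among them. Capitals mark matches, on either strand, to the p53 decamer consensus (a full p53 element holds a pair of such decamers), to a pair of CATG cores 6 bases apart (the spacing within a full p53 element), to the cAMP response element TGACGTCA or its shorter core TGACG, to the AP-1 site TGACTCA and to the FOXO core TGTTTAC. Each TGACGTCA also holds TGACG, on both strands.

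The upstream start of Cdkn1a (chr17:29090729-29091028, plus strand) and the start of Ccng1 (chr11:40755237-40755536, minus strand) are shown as examples of p53 targets with a decamer match in the window:
Cdkn1a: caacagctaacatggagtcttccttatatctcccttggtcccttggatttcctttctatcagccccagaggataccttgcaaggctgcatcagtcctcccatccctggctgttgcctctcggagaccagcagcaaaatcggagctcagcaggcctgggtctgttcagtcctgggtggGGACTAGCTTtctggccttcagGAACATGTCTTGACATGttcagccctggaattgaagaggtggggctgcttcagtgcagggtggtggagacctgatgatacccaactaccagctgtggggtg
Ccng1: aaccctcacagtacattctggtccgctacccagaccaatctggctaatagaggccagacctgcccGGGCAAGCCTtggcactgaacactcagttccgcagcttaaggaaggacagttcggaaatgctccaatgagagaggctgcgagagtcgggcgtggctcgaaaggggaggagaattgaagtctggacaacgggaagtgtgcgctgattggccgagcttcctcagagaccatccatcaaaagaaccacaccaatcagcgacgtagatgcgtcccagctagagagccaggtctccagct

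The Plk3 (chr4:117133914-117134213, minus strand) and Plk2 (chr13:110394794-110395093, plus strand) starts are shown because these related kinases differed most in their response:
Plk3: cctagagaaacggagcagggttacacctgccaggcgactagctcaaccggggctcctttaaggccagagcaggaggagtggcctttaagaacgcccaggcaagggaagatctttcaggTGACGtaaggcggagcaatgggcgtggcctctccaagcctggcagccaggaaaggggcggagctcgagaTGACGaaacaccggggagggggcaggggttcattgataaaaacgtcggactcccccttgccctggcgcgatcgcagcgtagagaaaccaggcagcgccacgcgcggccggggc
Plk2: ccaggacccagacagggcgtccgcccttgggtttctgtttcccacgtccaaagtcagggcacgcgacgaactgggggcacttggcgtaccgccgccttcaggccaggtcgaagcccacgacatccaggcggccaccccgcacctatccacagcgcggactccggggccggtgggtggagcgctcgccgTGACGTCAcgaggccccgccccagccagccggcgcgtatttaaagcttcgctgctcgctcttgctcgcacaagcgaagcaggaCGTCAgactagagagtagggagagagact

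The downstream one of the 2 Mdm4 starts (chr1:133025367-133025666, minus strand) is shown because Mdm4, like Plk3, passed the test below when the replicate number was a block:
Mdm4: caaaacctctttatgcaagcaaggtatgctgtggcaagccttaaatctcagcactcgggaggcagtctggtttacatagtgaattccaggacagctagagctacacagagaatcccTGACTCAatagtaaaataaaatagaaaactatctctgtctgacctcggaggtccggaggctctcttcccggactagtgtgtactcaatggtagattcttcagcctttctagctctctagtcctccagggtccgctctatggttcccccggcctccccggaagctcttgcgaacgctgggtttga

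The upstream Cdkn1a window held 2 decamer matches, and the second, 51 to 42 bases before the start, overlaps the pair of CATG cores. The downstream Cdkn1a window held no match to any of the motifs. Such a pair occurred in 0.712% of 32851 start windows of the same length, and a decamer match in 8.36%. The windows of Trp53, Mdm2, Ccng1 and 1 of the 2 of Sesn1 held 1 decamer match each. Plk2 and Btg2 held a full TGACGTCA (1.79% of all windows), at 62 to 55 and 166 to 159 bases before the start. Plk3 held TGACG at 2 places, where 20.8% of all windows held at least 1, and no p53 decamer match. TGACG also stood in the Mdm2 window, in the Sesn1 window with the decamer match and at a further place in Plk2. The Mdm4 window shown held 1 TGACTCA (5.2%), and the upstream Mdm4 window held no match. Mdm2 and the other Sesn1 window held 1 TGTTTAC each (3.65%). These are matches of letters only, elements outside the windows were not searched, and binding was not measured.

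Total counts ran from 17279505 to 19136068 per library, and 21045 to 22384 genes had at least 1 read. High-glucose replicate 2 stood apart, with Pearson correlations of log2 CPM (read counts scaled to library size) of 0.939 to 0.96 with the other libraries against 0.967 to 0.981 among those, across genes. In that library genes of long exonic length were lower: the log2 ratio of high to low glucose fell by 0.29 per doubling of exonic length in replicate 2 and by 0.057 in replicate 1. This touches Mdm4 and Zmat3, with 14798 and 11435 exonic bases, longer than 97.4% and 93.9% of tested genes. Plk3 has 2531. The islet hormone markers were present in every library (summed CPM of 7 beta-cell markers 80380 to 198600, highest in high-glucose replicate 2), and those of acinar cells summed to 243 to 552 CPM over 10 genes with 0 of them absent. Summed CPM of 5 endothelial markers (47.4 and 54.5 in replicates 1, 168 and 152 in replicates 2) and of 5 fibroblast markers (513 and 477, against 89.0 and 117) moved with the replicate number rather than with glucose. In such whole-islet RNA, fewer cells of a type and less RNA per cell cannot be told apart. The part that these differences between libraries had in the results was not tested.

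The comparison of high with low glucose asks which of these transcripts differed 2 h after glucose was added. Plk3 mRNA, for a stress-activated polo-like kinase, was lower at high glucose in both replicates, with a mean 0.352 times that at low glucose, and passed the test when the replicate number was a block. Mdm4 mRNA, with a mean 0.505 times that at low glucose, passed in the same fit but not once a trend with exonic length was removed. Trp53 itself and the other 7 genes did not pass, and Cdkn1a, for the cell cycle inhibitor p21, had higher values at high glucose, at 1.32 times the low-glucose mean. In the main fit, which had no such block, neither Plk3 nor Mdm4 nor any other gene passed.

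The test was edgeR's quasi-likelihood F test (two-sided) with Benjamini-Hochberg adjustment over all 15665 genes, and a log2 fold change below 0 means lower at high glucose. Without a term for the replicate number it placed 0% of all genes and 0 of the 10 past an adjusted p of 0.05. At an unadjusted p under 0.05 it had 2 of the 10, Plk3 and Mdm4, against 10.5% of all genes. With the replicate number as a block, 2 of the 10 were lower against 5.01% of all genes, and 0 were higher against 1.85%. DESeq2 without a block placed 1 of the 10 lower, Plk3, against 1.14% of all genes, and limma-voom placed none of the 10 and no gene at all. By the thresholds that the study applied (unadjusted p under 0.05 and a fold over 1.5) the unblocked fit had the same 2 genes lower against 6.33% of all, and none higher against 3.63%. Neither the labels nor the methods state that equal replicate numbers are pairs of RNA libraries, so both fits are given. In the blocked edgeR fit the spread of each gene was drawn from a trend over all genes. The standard errors and p-values of that fit thus do not show how well the replicates of a gene agree. Below, pair 1 and pair 2 are the high- and low-glucose libraries of the same number.

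The median log2 fold change of the 10 genes in the blocked fit was -0.15, against -0.01 for all tested genes. In log2 ratios the median of the 10 was -0.12 in pair 1, against -0.03 for all tested genes, and -0.45 in pair 2, against 0.01. Of the 10, 9 had a blocked log2 fold change below 0, against 51% of all tested genes. Among these, Sesn1 (-0.01), Plk2 (-0.05) and Btg2 (-0.05) lay near 0 beside standard errors of 0.28. Trp53 (-0.11), Ccng1 (-0.19) and Zmat3 (-0.26) also lay within 1 standard error of 0. With the length trend removed as well, 8 of the 10 were below 0, against 47.8% of all tested genes. In CPM, the high-glucose libraries lay below both low-glucose libraries for 4 genes (Plk3, Mdm4, Mdm2 and Zmat3), against 25.9% of all genes, and above both for 1 (Cdkn1a), against 22.4%. For the other 5 genes the groups overlapped.

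**Figure D1:**
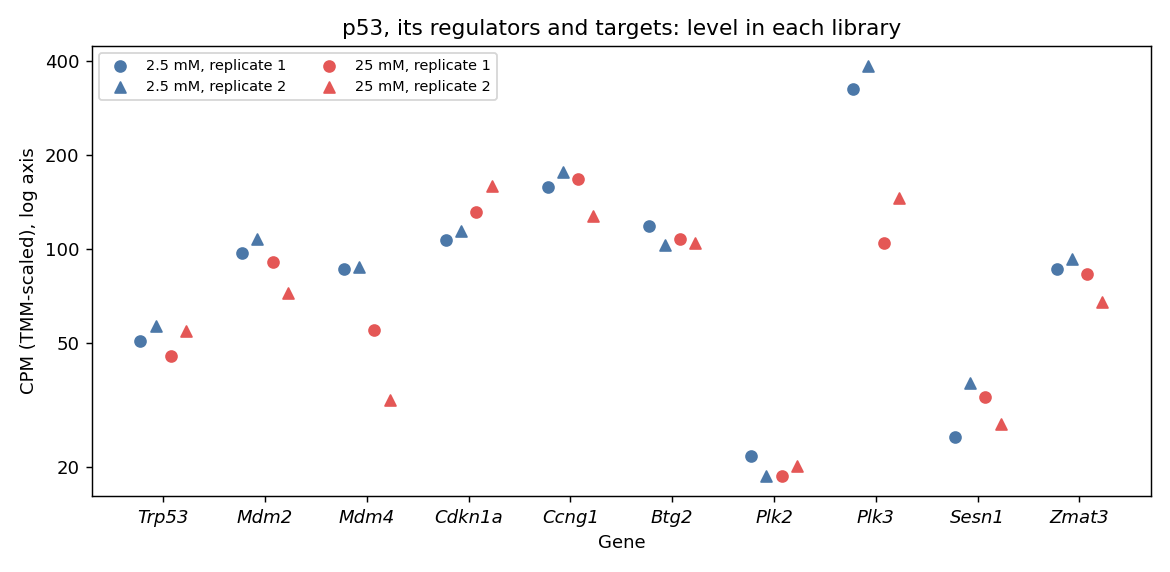
CPM (TMM-scaled, log axis) of the 10 genes in each of the 4 libraries, blue for 2.5 mM and red for 25 mM glucose, circles for replicate 1 and triangles for replicate 2. Plk3 lies between 324 and 383 CPM at 2.5 mM and between 104 and 145 CPM at 25 mM, while the 4 points of Trp53, Btg2, Plk2, Ccng1 and Sesn1 are mixed.

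Plk3 (ENSMUSG00000028680, chromosome 4, 116985852 to 116991160 in the table) had 324 and 383 CPM in low-glucose replicates 1 and 2, and 104 and 145 CPM in high-glucose replicates 1 and 2. Both high-glucose libraries lay far below both low-glucose libraries, and the gap between groups exceeded the spread within each. The mean was 354 ± 42.1 CPM at low glucose and 125 ± 28.5 CPM at high glucose (SD, n = 2 each). Pair 1 had a log2 ratio of -1.63 and pair 2 of -1.41, and the blocked fit gave -1.52 (SE 0.27, edgeR adjusted p = 5.04e-06). Without the block the value was -1.50 (SE 0.25), with an unadjusted p of 4.6e-04 and an edgeR adjusted p of 0.399. Removing the length trend as well as blocking left -1.65 (SE 0.19, edgeR adjusted p = 6.01e-15). The p-value of that fit, like that of the blocked one, does not show how well the replicates agree. With the length trend removed but no block, the value was -1.65 (SE 0.26, edgeR adjusted p = 0.0733). Plk3 was the most abundant of the 10 at low glucose, and it was the one gene of the 10 that passed in DESeq2 (adjusted p = 8.68e-05).

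Plk2, the closest relative of Plk3 in the list and like it a kinase with early-response behaviour, had 21.7 and 18.8 CPM at low glucose and 18.7 and 20.2 CPM at high glucose. The groups overlapped, and the 2 pairs went in opposite directions (log2 ratios -0.21 and 0.10). The blocked log2 fold change was -0.05 (SE 0.28, edgeR adjusted p = 0.949). Per kilobase of exonic length, Plk3 stood at 26.5 and 36.3 times the level of Plk2 in low-glucose replicates 1 and 2, and at 9.92 and 12.7 times in high-glucose replicates 1 and 2. The ratio was thus lower in both high-glucose libraries. An exact two-sided permutation test of the log2 ratio over the 4 libraries gave p = 0.333, the smallest that this design allows (0.444 adjusted over the 4 gene ratios given here), so the test could not reach the threshold.

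**Figure D2:**
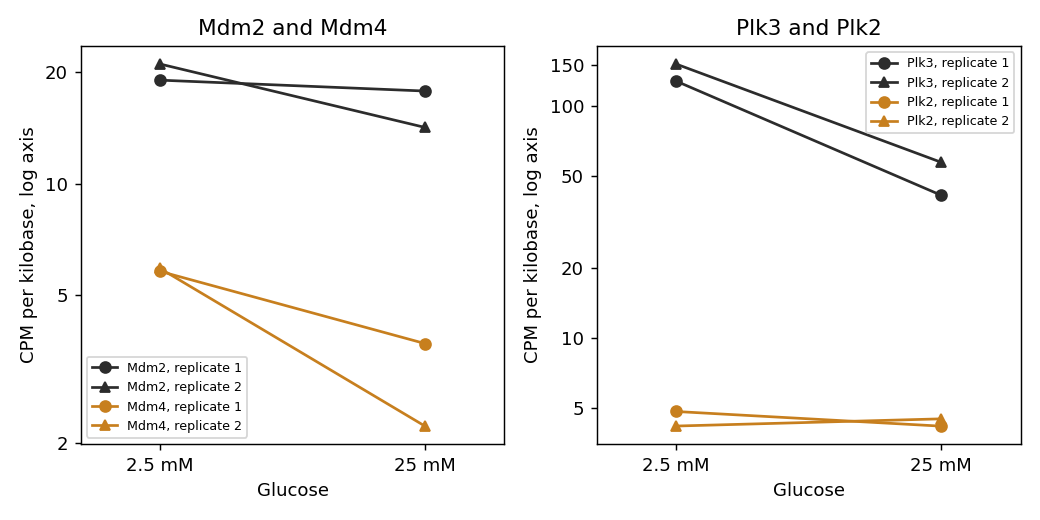
Level per kilobase of exonic length (CPM per kilobase, log axes that differ between panels) at both glucose levels for Mdm2 and Mdm4 (left) and Plk3 and Plk2 (right), with a line for each replicate number. The Plk3 lines drop from 128 and 152 to 41.3 and 57.2, the Plk2 lines stay between 4.17 and 4.83, and Mdm4 drops more than Mdm2 in both replicates.

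Trp53 (ENSMUSG00000059552, chromosome 11, 69471185 to 69482699) had 50.6 and 56.6 CPM at low glucose and 45.4 and 54.5 CPM at high glucose. The groups overlapped. The blocked log2 fold change was -0.11 (SE 0.28, edgeR adjusted p = 0.89), and the unblocked one -0.10 (SE 0.22). The processed pseudogene Trp53-ps held 24 reads over the 4 libraries, against 899 to 1053 reads per library for Trp53. Among the other members of the p53 family, Trp63 had 0 reads in every library, which allows up to 3 reads or 0.169 CPM per library, and Trp73 had 0 to 6 reads.

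Mdm4 (ENSMUSG00000054387, chromosome 1, 132887222 to 132958299) had 85.9 and 87.4 CPM at low glucose and 54.8 and 32.8 CPM at high glucose. The low-glucose libraries were nearly alike, and the high-glucose libraries were both lower but differed from each other. Pair 1 had a log2 ratio of -0.65 and pair 2 of -1.42. In the blocked fit the log2 fold change was -1.03 (SE 0.28, edgeR adjusted p = 9.39e-03), and without the block -0.98 (SE 0.28, edgeR adjusted p = 0.431). With the length trend removed the blocked value was -0.50 (SE 0.20, edgeR adjusted p = 0.105), so the call was lost. DESeq2 with the block gave an adjusted p of 0.0511. Leaving out high-glucose replicate 2 gave -0.65, and leaving out high-glucose replicate 1 gave -1.40, both without the block.

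Mdm2, which ubiquitinates p53 and is a p53 target, had 97.0 and 107 CPM at low glucose and 90.6 and 72.2 CPM at high glucose. Both high-glucose values were below both low-glucose values, though by little in replicate 1 (log2 ratios -0.10 and -0.57). The blocked log2 fold change was -0.33 (SE 0.28, edgeR adjusted p = 0.566). The level of Mdm2 per kilobase was 3.29 and 3.58 times that of Mdm4 at low glucose and 4.82 and 6.41 times at high glucose (exact permutation p = 0.333, adjusted 0.444). Relative to Trp53, Mdm2 stood at 1.53 and 1.51 times per kilobase at low glucose and at 1.59 and 1.06 times at high glucose. In that ratio 3 libraries were close together and high-glucose replicate 2 was lower (exact permutation p = 1).

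Cdkn1a (ENSMUSG00000023067, chromosome 17, 29309950 to 29319701), the best known p53 target and an inhibitor of cyclin-dependent kinases, had 107 and 114 CPM at low glucose and 131 and 159 CPM at high glucose. Both high-glucose libraries were above both low-glucose libraries. The mean was 110.1 ± 4.77 CPM at low and 145 ± 19.4 CPM at high glucose (SD, n = 2 each), with log2 ratios of 0.30 and 0.48. The blocked log2 fold change was 0.39 (SE 0.28, edgeR adjusted p = 0.473), and the unblocked one 0.40 (SE 0.21, edgeR adjusted p = 0.524). It passed only without high-glucose replicate 1 (log2 fold change 0.53, edgeR adjusted p = 0.0471), a setting in which 3253 genes passed and the lone high-glucose library is assumed to vary like the low-glucose ones. Relative to Trp53 and per kilobase, Cdkn1a stood at 2.39 and 2.28 times at low glucose and at 3.29 and 3.32 times at high glucose. The 2 libraries of each level were close together in this ratio. The exact permutation p was 0.333 (adjusted 0.444), the smallest that this design allows, so the test could not reach the threshold.

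Ccng1, which encodes cyclin G1, a p53 target that recruits a phosphatase to MDM2, had 158 and 176 CPM at low glucose and 167 and 127 CPM at high glucose. Btg2, an antiproliferative partner of the mRNA deadenylation machinery, had 118 and 103 CPM at low glucose and 108 and 105 CPM at high glucose. In both genes the groups overlapped and the pairs differed in sign. The blocked log2 fold changes were -0.19 (SE 0.27, edgeR adjusted p = 0.768) and -0.05 (SE 0.28, edgeR adjusted p = 0.948).

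Sesn1, a sestrin that restrains mTORC1 when amino acids are scarce, had 25.0 and 37.1 CPM at low glucose and 33.6 and 27.4 CPM at high glucose. Its pairs went in opposite directions by about the same amount (log2 ratios 0.43 and -0.44), the widest disagreement among the 10, and the blocked log2 fold change was -0.01 (SE 0.28, edgeR adjusted p = 0.995). Zmat3, a zinc finger protein that binds RNA, had 86.2 and 92.8 CPM at low glucose and 82.8 and 67.6 CPM at high glucose. Its groups did not overlap, but the blocked log2 fold change of -0.26 (SE 0.28, edgeR adjusted p = 0.68) turned to 0.17 (SE 0.20, edgeR adjusted p = 0.693) with the length trend removed. Its sign thus differed between the fits.

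**Figure D3:**
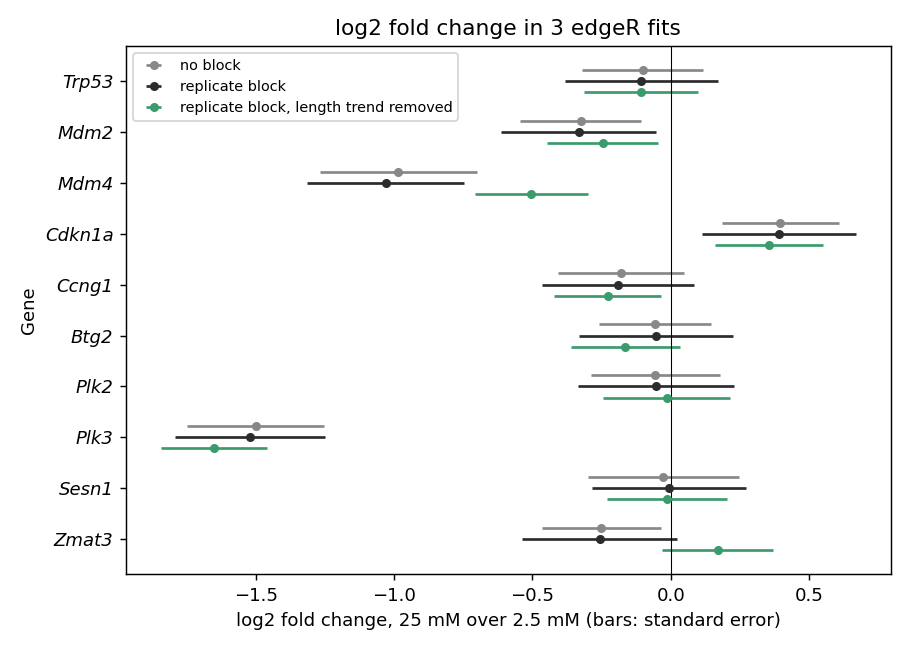
log2 fold change of high over low glucose for the 10 genes in the unblocked edgeR fit (grey), with the replicate block (black) and with block plus length correction (green); bars are standard errors. Plk3 stays between -1.65 and -1.50, Mdm4 moves from -1.03 to -0.50 when the length trend is removed, and Zmat3 changes sign.

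**Figure D4:**
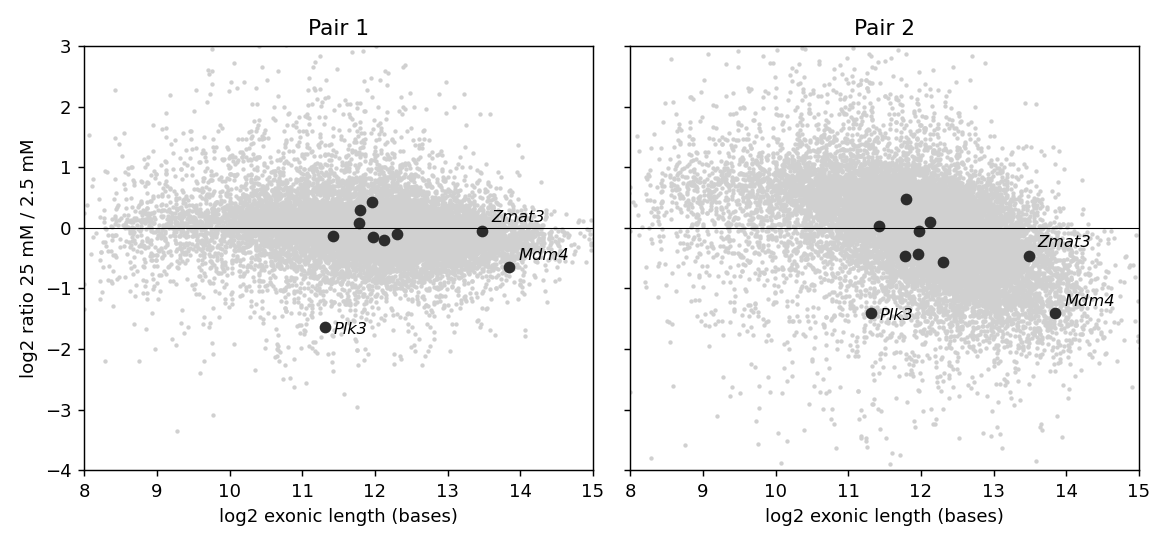
log2 ratio of high to low glucose against log2 exonic length for all 15665 tested genes (grey) and the 10 genes (black), in pair 1 (left) and pair 2 (right). The cloud tilts downwards with length in pair 2, where Mdm4 and Zmat3 sit near its long end, while Plk3 lies at the lower edge of the cloud among shorter genes in both pairs; points beyond the axes are not drawn.

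The order of the levels can be read per kilobase of exonic length. That length is 1 value per gene, and the lengths of the transcripts present in the islets were not measured. At low glucose Plk3 had 140 ± 16.7 CPM per kilobase, followed by Ccng1 (47.5 ± 3.55), Btg2 (40.2 ± 3.83), Cdkn1a (31.0 ± 1.34), Mdm2 (20.1 ± 1.42) and Trp53 (13.3 ± 1.05; SD, n = 2 each). Then came Zmat3 (7.83 ± 0.411), Sesn1 (7.80 ± 2.14), Mdm4 (5.86 ± 0.0744) and Plk2 (4.50 ± 0.458). Of these neighbours, the libraries of Zmat3 and Sesn1 overlapped. At high glucose Plk3 (49.2 ± 11.3), Ccng1 (41.9 ± 8.09), Cdkn1a (40.8 ± 5.47) and Btg2 (38.7 ± 0.764) followed each other, and the libraries of each neighbouring pair overlapped, while both Plk3 libraries still lay above both of Btg2. Below them came Mdm2 (16.0 ± 2.55) and Trp53 (12.4 ± 1.58), then Sesn1 (7.66 ± 1.10) and Zmat3 (6.58 ± 0.945), which overlapped, Plk2 (4.33 ± 0.222) and Mdm4 (2.96 ± 1.05). Plk2 and Mdm4 thus changed places at the bottom of the order.

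A wider list of 71 other p53 regulators and targets was examined in the same fits, and 66 of them passed the filter. In the blocked fit 12 of the 66 were lower and 0 higher, and 54 passed in neither direction, beside the shares of all genes given above for that fit (5.01% lower, 1.85% higher). The median log2 fold change of the list was -0.10, against -0.01 for all tested genes, and 36 of the 66 lay below 0, against 51% of all. By kind, the median was -0.26 for the 17 tested regulators and 0.006 for the 49 tested targets. In log2 ratios the median of the list was -0.19 in pair 1 and 0.01 in pair 2. Without the block 0 of the 66 passed, and 10 had an unadjusted p under 0.05 (7 lower and 3 higher, against 10.5% of all genes in either direction). DESeq2 without the block gave an adjusted p for 55 of the 66 and placed 2 lower, Trp53inp1 and Sesn2, against 1.14% of all genes. With block and length correction together, 9 were lower, against 5.02% of all genes, and 4 higher, against 3.76%; all 9 were also lower in the blocked fit.

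Against a share of 5.01% of all genes, 6 of 17 tested regulators were lower in the blocked fit. These were the DNA damage kinases Atm (log2 fold change -1.47, SE 0.29) and Atr (-0.91, SE 0.29), the p53 kinase Hipk2 (-1.96, SE 0.33), the acetyltransferases Ep300 (-1.12, SE 0.29) and Crebbp (-1.06, SE 0.29), and the deacetylase Sirt1 (-0.98, SE 0.28). Most of the change lay in pair 2: the log2 ratios of Hipk2 were -0.36 and -3.66, and those of Atm -0.63 and -2.34. The blocked edgeR standard errors do not carry this disagreement. Hipk2 had an SE of 0.76 without the block and of 1.31 in DESeq2 with the block. For Atm these were 0.485 and 0.394. The 6 regulators have long exonic lengths, from 5331 to 23629 bases, against a median of 4129 over tested genes. Of them, Atr and Crebbp did not pass once the length trend was removed. In DESeq2 with the same block Atm passed (adjusted p = 0.0168) and the other 5 did not, with adjusted p of 0.239 for Atr, 0.537 for Hipk2, 0.0982 for Ep300, 0.0595 for Crebbp and 0.13 for Sirt1. Without high-glucose replicate 1 the unblocked log2 fold change was -3.48 for Hipk2, -2.33 for Atm, -1.59 for Atr, -1.86 for Ep300, -1.35 for Crebbp and -1.38 for Sirt1. Without high-glucose replicate 2 it was -0.54, -0.64, -0.25, -0.40, -0.79 and -0.59 in the same order. Cdkn2a, whose ARF product inhibits MDM2, had 4 to 13 reads per library and was not tested.

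Among 49 tested targets outside the 10 genes, 6 were lower in the blocked fit, against 5.01% of all genes, and 0 were higher, against 1.85%. With block and length correction together, 5 were lower, against 5.02% of all genes, and 3 higher, against 3.76%. Trp53inp1, a p53-induced promoter of autophagy and cell death, had 128 ± 4.06 CPM at low and 46.5 ± 19.8 CPM at high glucose (SD, n = 2 each). The blocked value was -1.53 on the log2 scale (SE 0.29, edgeR adjusted p = 2.42e-05). Sesn2, the stress-induced relative of Sesn1, had 229 ± 21.3 CPM at low and 112 ± 7.46 CPM at high glucose, a log2 fold change of -1.03 (SE 0.27, edgeR adjusted p = 6.54e-03). Its pairs had nearly equal log2 ratios of -1.05 and -1.0. Bbc3, which encodes the cell death inducer PUMA, and Gadd45a, a growth arrest and DNA damage gene, had log2 fold changes of -1.02 (SE 0.29) and -0.91 (SE 0.28). Unlike the long regulators these fell more in pair 1 (log2 ratios -1.59 and -1.22) than in pair 2 (-0.46 and -0.60). Rrm2b, a ribonucleotide reductase subunit, had -0.88 (SE 0.29), which did not pass with the length trend removed, and log2 ratios of -0.37 and -1.40 in the pairs. Its unblocked value was -1.53 without high-glucose replicate 1 and -0.23 without high-glucose replicate 2. Those of Bbc3 and Gadd45a were -0.58 and -0.59 without high-glucose replicate 1 and -1.47 and -1.21 without high-glucose replicate 2. In DESeq2 with the block Trp53inp1 (adjusted p = 3.49e-04) and Sesn2 (0.0135) passed, and Bbc3 (0.16), Gadd45a (0.115) and Rrm2b (0.157) did not.

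The sixth target, Trp53cor1, is a long non-coding RNA. Its gene lies on the minus strand and Cdkn1a on the plus strand, with 11796 bases between them in the table. Trp53cor1 had 88 and 67 reads at low glucose and 66 and 14 at high glucose, a log2 fold change of -1.25 (SE 0.42, edgeR adjusted p = 0.047). With the same block it did not pass in limma-voom (adjusted p = 0.119) or DESeq2 (0.363), and its unblocked value was -2.42 without high-glucose replicate 1 and -0.34 without high-glucose replicate 2. Its values thus lay on the opposite side of 0 from those of its neighbour Cdkn1a. Bax and Fas, an effector and a receptor of cell death, did not pass in the blocked fit (edgeR adjusted p = 0.347 and 0.506). The 4 genes higher with block and length correction together were Chek1 (1.10), Ptp4a3 (0.97), Tigar (0.72) and Btg1 (0.62). These 4, and Bax and Fas, were named after their values were seen, and none passed in the blocked fit alone.

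**Figure D5:**
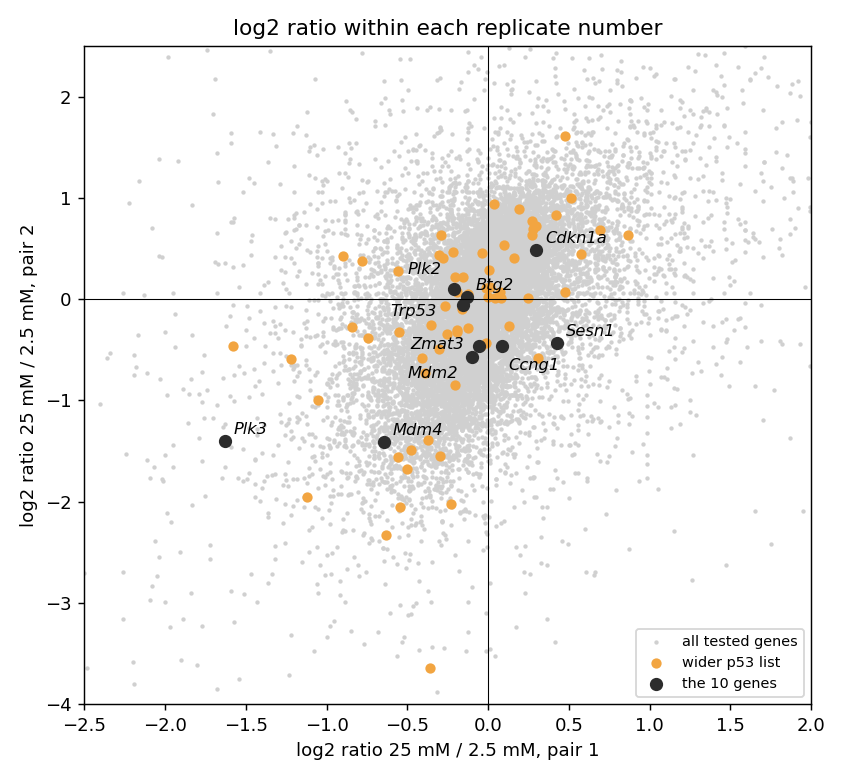
log2 ratio of high to low glucose in pair 1 (horizontal) and pair 2 (vertical) for all tested genes (grey, points beyond the axes not shown), the 66 tested genes of the wider p53 list (orange) and the 10 genes (black, named). Plk3 and Mdm4 lie at the lower left, Cdkn1a at the upper right, and Sesn1 and Ccng1 have pairs of opposite sign.

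By distance between mean-centred log2 CPM over the 4 libraries, among 14066 genes of at least 1 CPM, the genes most like Plk3 were the long non-coding RNA Gm49668 (distance 0.225, blocked log2 fold change -1.70), ENSMUSG00000117102 (0.304, -1.84) and the pseudogene Gm30531 (0.305, -1.86). These 3 have few reads. Those most like Mdm4 were Hmgxb4 (0.0441, -1.04), Hunk (0.0769, -1.01) and Rnf180 (0.0777, -1.09). With 4 libraries such likeness is a description only.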

How the data were processed

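Poly(A)-selected RNA was sequenced from 4 islet cultures, 2 at each glucose level. Reads were cleaned with fastp, aligned with HISAT2 2.2.1 and counted per gene with featureCounts by the authors, and the deposited table gives unnormalised read counts per gene beside its exonic length. The labels name mm10, but 0 of the 10 genes had the start of GENCODE vM21, so gene positions are those of the table and no build is named for them. Promoter windows come from RefSeq on GRCm38.p6. Strandedness and the treatment of multi-mapping reads are not given in the sources used here. Each of Trp53, Mdm4, Cdkn1a, Plk3 and Sesn1 overlaps 1 other gene, with 3 to 84 reads in all libraries together.

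The main test was the quasi-likelihood test of edgeR 4.0.16 (R 4.3.3), with TMM scaling and the default filterByExpr, over 15665 genes. The standard error is the log2 fold change divided by the square root of F. CPM was scaled by TMM. Alternatives were a block for the replicate number, a loess trend (span 0.5) of log2 deviation on log2 exonic length removed through offsets, DESeq2 1.42.0 and limma-voom (limma 3.58.1), other scalings, no filter, and leaving out each library. Same-numbered libraries deviated together from their group means (Pearson r = 0.409 across genes), but with 2 numbers this is weak ground for a pairing. Of 4 libraries the block leaves 1 degree of freedom for the residual. The prior degrees of freedom of the blocked edgeR fit were infinite, so its spread was pooled over genes. The fitting code was tested on simulated data. The labels call the libraries biological repeats, but which mice went into each is not given, so p-values refer to these libraries only. The limit given for a count of 0 covers counting error only.

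The 10 genes and the wider list were chosen with earlier results of these data known, and nothing was adjusted over a list alone. All 10 were named. Of the wider list, genes past the threshold in the blocked or unblocked edgeR fit or in DESeq2 were named, with Trp63, Trp73 and Cdkn2a; Bax, Fas, Chek1, Ptp4a3, Tigar and Btg1 were added after their values were seen. For members past the blocked threshold the 3 nearest genes were named. The ratios of Mdm2 and Cdkn1a to Trp53, and the permutation tests of the gene ratios, were not planned beforehand.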

Additional observations from a re-analysis of the deposited data

How the results depend on the processing

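Over all tested genes the unblocked count past the adjusted threshold was 0. It was 1075 with the replicate block, 1375 with the replicate block and length correction, 12 with the length trend removed alone, 597 without the filter on low counts, 185 in DESeq2, 256 in DESeq2 with the block and 970 in limma-voom with the block. DESeq2 size factors, library totals and limma-voom kept it at 0. As shares of all genes these counts were 6.86% with the block, 8.78% with block and length correction and 6.19% in limma-voom with the block. Of the genes to which DESeq2 gave an adjusted p, they were 1.62% without and 2.14% with the block. Of the 10 genes, 2 passed with the block, 2 without the filter and 2 in limma-voom with the block (Plk3 and Mdm4 each time). There was 1 (Plk3) with block and length correction, 1 in DESeq2 and 1 in DESeq2 with the block. By the study's thresholds the unblocked count of 2 became 1 with the length trend removed, with or without the block. Of the wider list 12 passed with the block, 13 with block and length correction, 7 without the filter, 2 in DESeq2, 3 in DESeq2 with the block and 11 in limma-voom with the block. Leaving out 1 library gave 5 to 3253 genes, 0 to 3 of the 10, 0 to 18 of the wider list, and 1 to 2 of the 10 by the study's thresholds; the highest count past the adjusted threshold came in each case without high-glucose replicate 1. Plk3, Mdm4, Mdm2 and Cdkn1a kept their direction in all 14 alternatives. The log2 fold change of Plk3 ran from -1.75 to -1.28, and it passed in 7; that of Mdm4 ran from -1.40 to -0.50, and it passed in 4. Zmat3 turned to 0.17 with block and length correction and to 0.18 (adjusted p = 0.848) with that trend removed alone. Sesn1 had 0.0101 in DESeq2 with the block. Leaving out 1 library gave -0.286 to 0.336 for Sesn1, -0.229 to 0.0379 for Trp53, -0.387 to 0.0158 for Ccng1, -0.0972 to 0.0404 for Btg2 and -0.101 to 0.0489 for Plk2. The median of all genes moved by -0.0143 log2 units with library totals, 0.0237 with DESeq2 size factors and 0.0353 with the length trend removed. The causes of these changes were not tested. With 2 libraries a group, differences of the size seen in Cdkn1a and Mdm2 did not exceed what the test could separate from the spread.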
